A study of Mus musculus with 3 samples.

Results

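The insulin-like growth factor axis was followed through 10 genes: the ligands Igf1 and Igf2, the receptors Igf1r and Igf2r, and the binding proteins Igfbp2 to Igfbp7. They were chosen by gene symbol, with earlier results of these arrays known, out of 19938 genes measured, and each was read by 1 probe set. The arrays came from 3 mouse samples, 1 array each. The sample named DiBA was labelled as cultured cells, and the series title speaks of brown adipocytes made by direct conversion. BA carried brown adipose tissue as its source, whereas the description field reads as cultured cells, and the labels do not settle which was used. The third sample held cultured mouse fibroblasts. The labels name no strain, age or conversion agent. With 1 array a group there is no spread between replicates, so no test or p-value is given, and each difference describes these 3 arrays alone.

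Insulin-like growth factors are small secreted peptides related to insulin. Both ligands signal through the tyrosine kinase receptor encoded by Igf1r, whereas the receptor encoded by Igf2r binds Igf2 and carries it to lysosomes for breakdown. Secreted binding proteins hold the ligands outside the cell and are cut by proteases that free them. In mice Igf2 is expressed mainly from the paternal copy and is abundant in fetal and mesenchymal cells, and insulin and this axis both act on preadipocytes and adipocytes.

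The labels were set against marker genes, summed as intensity over each list. The 8 brown adipocyte genes summed to 25282 in DiBA and 26085 in BA, against 332 in fibroblasts, and the 7 general adipocyte genes measured to 31931 and 33599 against 715. The 10 fibroblast and matrix genes summed to 17875 in DiBA and 14979 in BA, against 35112 in fibroblasts. Of these 10, 6 were at least 2-fold lower in DiBA and 7 in BA, while 1 was at least 2-fold higher in each. Both DiBA and BA also carried genes of other cells. The 8 skeletal muscle genes summed to 12078 in DiBA and 13668 in BA, against 1043 in fibroblasts, and all 8 were at least 2-fold higher in each. The 8 endothelial genes summed to 3029 in DiBA and 3620 in BA, against 538 in fibroblasts, and the 8 macrophage and immune genes to 4348 and 4463 against 1081. Endothelial genes were at least 2-fold higher than in fibroblasts for 7 of 8 in DiBA and 8 of 8 in BA, and immune genes for 8 of 8 and 7 of 8. The 7 cell cycle genes measured summed to 1993 in DiBA and 1237 in BA, against 5927 in fibroblasts. Pcna alone had 997 in DiBA and 918 in BA, against 1147 in fibroblasts. Of the 7, 6 were at least 2-fold lower than in fibroblasts in DiBA and 6 in BA. Between DiBA and BA, 4 of the 7 were at least 2-fold higher in DiBA and 0 lower, beside 1.75% and 0.0% of all genes. In BA 3 of the 7 reached the median intensity of all probe sets. None of the genes in these lists was at 0. In fibroblasts 7 of the 8 brown adipocyte genes, 5 of the 8 endothelial genes, 3 of the 8 immune genes and 3 of the 8 muscle genes lay under 69.2, the median intensity of all probe sets. Fewer cells of a type and less RNA per cell cannot be told apart in such bulk samples, and the part of these other cells in the results below was not tested.

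Across the axis, most of the large differences were lower values in DiBA and BA than in fibroblasts. A gene was counted at a difference of at least 2-fold on the log2(intensity + 1) scale, where the brighter of both arrays reached 69.2, the median of all probe sets. All 10 genes passed that level in each comparison. Against fibroblasts, 5 of 10 were lower in DiBA and 5 of 10 in BA, Igf2, Igf1r, Igf2r, Igfbp2 and Igfbp3 in each case, and 0 were higher. Over all genes past the level filter, 13.2% were lower and 14.7% higher in DiBA, and 16.4% lower and 16.3% higher in BA. Both comparisons share the fibroblast array. Between DiBA and BA, 4 of 10 were higher in DiBA, Igf2, Igf1r, Igfbp3 and Igfbp4, and 0 were lower, beside 1.75% and 0.0% of all genes. With arrays centred on their medians or a pseudocount of 16, 3 were higher, without Igfbp3. Igf2, Igf1r and Igfbp3 were also lower in BA than in fibroblasts, and the share of all genes is not matched for that. Since the genes were picked with these values known, the counts are a description. The median log2 difference of the 10 genes was -1.15 for DiBA minus fibroblasts, -1.29 for BA minus fibroblasts and 0.50 for DiBA minus BA, while the median of all 19938 genes was 0 in each.

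**Figure D1:**
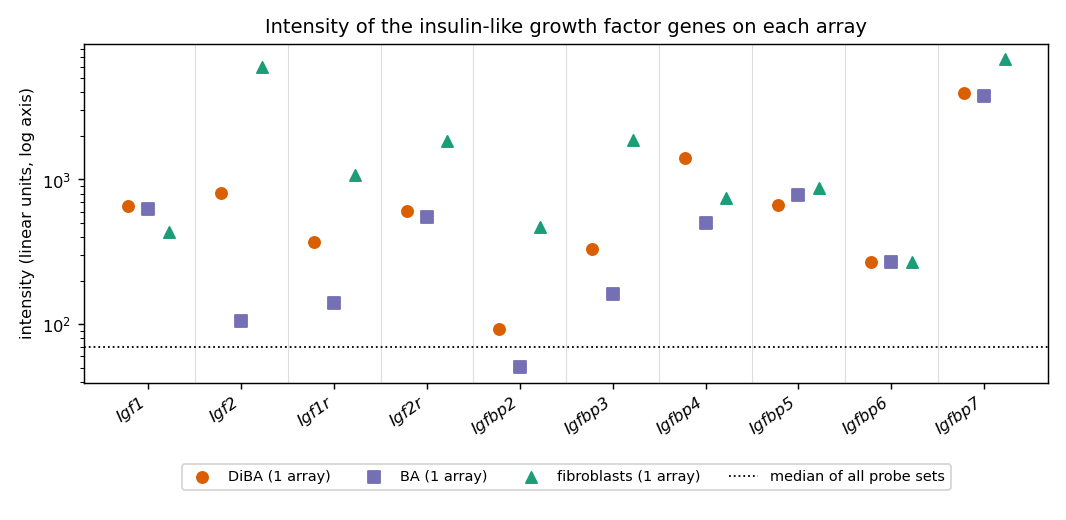
Intensity of each gene on the DiBA, BA and fibroblast arrays, 1 point per array, on a log axis; the dotted line is the median of all probe sets, 69.2. Igf2, Igf1r, Igf2r, Igfbp2, Igfbp3 and Igfbp7 stand in the order BA, DiBA, fibroblasts from low to high, Igfbp4 is highest in DiBA, and Igfbp2 in BA is the 1 point under the line.

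The ligands differed from each other. Igf2 (probe set 10569344, chromosome 7) had an intensity of 809 in DiBA and 106 in BA, against 5998 in fibroblasts. The fibroblast array was by far the highest and BA the lowest, with DiBA between them. Igf2 was 7.41-fold lower in DiBA than in fibroblasts (log2 difference -2.89) and 56.0-fold lower in BA than in fibroblasts (-5.81). Only 4 of the 11663 genes past the level filter had a lower difference than Igf2 for BA against fibroblasts. DiBA exceeded BA by 7.56-fold (2.92), and 7 of 11076 genes had a higher difference. That rank is not matched for the wide gap between BA and fibroblasts. On the linear scale, a measure chosen after the values were seen, DiBA lay 11.9% of the way from BA to fibroblasts for Igf2. Over the 1913 genes at least 2-fold lower in BA than in fibroblasts, the median was 10.2% (quartiles 3.87% and 17.5%), so the Igf2 position was ordinary among them. Igf1 (probe set 10365559, chromosome 10), the ligand that growth hormone induces in liver and adipose tissue, had 655 in DiBA and 626 in BA, against 431 in fibroblasts. It was therefore 1.52-fold higher in DiBA and 1.45-fold higher in BA than in fibroblasts, under the 2-fold threshold, and DiBA and BA differed by 1.05-fold. Macrophages are a known source of Igf1. The summed macrophage and immune genes were higher in DiBA and BA than in fibroblasts, as were the adipocyte, muscle and endothelial sums given above. Whether any of these cells had a part in the Igf1 values was not tested.

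The promoter windows of the ligands are shown because the 2 genes differed from fibroblasts in opposite directions. Each window is the 250 bases before a RefSeq transcript start in the mouse assembly GRCm38.p6, written from 5′ to 3′ on the gene's strand. Capitals mark a GC box (GGGCGG, on either strand) or a TATA box (TATAAA, on either strand). For Igf2, 4 starts are listed, and the window shown belongs to the start farthest downstream, at chr7:142657497-142657746 on the minus strand. The Igf1 window lies at chr10:87860861-87861110 on the plus strand.
Igf2: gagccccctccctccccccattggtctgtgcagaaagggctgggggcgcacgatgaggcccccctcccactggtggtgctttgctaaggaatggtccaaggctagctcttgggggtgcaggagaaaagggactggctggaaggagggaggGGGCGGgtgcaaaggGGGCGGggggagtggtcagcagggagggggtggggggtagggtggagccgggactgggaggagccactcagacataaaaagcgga
Igf1: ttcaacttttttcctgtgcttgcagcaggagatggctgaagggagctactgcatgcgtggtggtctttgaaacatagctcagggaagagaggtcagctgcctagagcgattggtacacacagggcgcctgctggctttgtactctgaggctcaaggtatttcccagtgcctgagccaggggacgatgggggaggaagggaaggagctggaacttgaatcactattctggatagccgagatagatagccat
The Igf2 window holds 2 GC boxes, beginning 100 and 85 bases before the start, and 6 CpG dinucleotides. The other Igf2 windows hold 22, 10 and 1 CpG, going upstream, and the probe set cannot tell which start was used. The Igf1 window holds neither motif and 5 CpG. Of all 32851 windows of this length, 32.7% hold a GC box and 12.4% a TATA box, and the median window has 6 CpG (quartiles 2 and 16). Such matches are letters in a window and no measure of binding.

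By distance over the pair of log2 differences from fibroblasts (DiBA and BA), 11208 named genes past the level filter on at least 1 array were ranked by how near they lay to each ligand. Nearest to Igf2 were Cdh11, a cadherin of mesenchymal cells, at a distance of 0.50, Timp1, an inhibitor of matrix metalloproteases, at 0.62, and Ptgs2, a prostaglandin synthase, at 0.66. Cdh11 had an intensity of 543 in DiBA and 106 in BA, against 4258 in fibroblasts. In BA, Timp1 had 51.2 and Ptgs2 41.2, both under 69.2, so their distances rest in part on background. Nearest to Igf1 were Man2b2, a mannosidase, at 0.02, Echdc2 at 0.02 and Anp32-ps at 0.02. These likenesses rest on 3 arrays. The distances cannot be compared between the ligands, because few genes lie as far out as Igf2. Only 4 of 11663 genes had a lower difference for BA against fibroblasts.

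Both receptors were lower in DiBA and in BA than in fibroblasts, but they differed in how DiBA stood to BA. Igf1r (probe set 10554094, chromosome 7), the signalling receptor, had 372 in DiBA and 139.9 in BA, against 1081 in fibroblasts. It was 2.90-fold lower in DiBA (-1.54) and 7.68-fold lower in BA (-2.94) than in fibroblasts, and 2.65-fold higher in DiBA than in BA (1.41 on the log2 scale). Igf2r (probe set 10447799, chromosome 17), the clearance receptor, had 604 in DiBA and 551 in BA, against 1831 in fibroblasts. It was 3.03-fold lower in DiBA (-1.60) and 3.32-fold lower in BA (-1.73), and DiBA and BA lay within 1.10-fold of each other. Airn, the antisense RNA that silences Igf2r in cis on the paternal copy, had 497 in DiBA and 459 in BA, against 614 in fibroblasts. Airn and Igf2r overlap in the genome on opposite strands, and the strand the probe sets read was not checked.

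The window before the Igf1r start, at chr7:67952007-67952256 on the plus strand, is the richest in CpG of the 14 windows listed for the 10 genes and is shown for that contrast with Igf1.
Igf1r: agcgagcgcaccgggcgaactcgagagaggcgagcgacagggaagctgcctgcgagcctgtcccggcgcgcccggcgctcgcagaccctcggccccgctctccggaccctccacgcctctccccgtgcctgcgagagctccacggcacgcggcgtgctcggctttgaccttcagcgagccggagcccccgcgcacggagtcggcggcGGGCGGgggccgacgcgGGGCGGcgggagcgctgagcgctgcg
It holds 42 CpG and 2 GC boxes, beginning 43 and 26 bases before the start. The Igf2r window holds 27 CpG and 3 GC boxes. Of the 14 windows, 6 hold a GC box and 2 a TATA box, beside 32.7% and 12.4% of all 32851 windows. The TATA box of the Igfbp6 window begins 148 bases before the start.

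**Figure D2:**
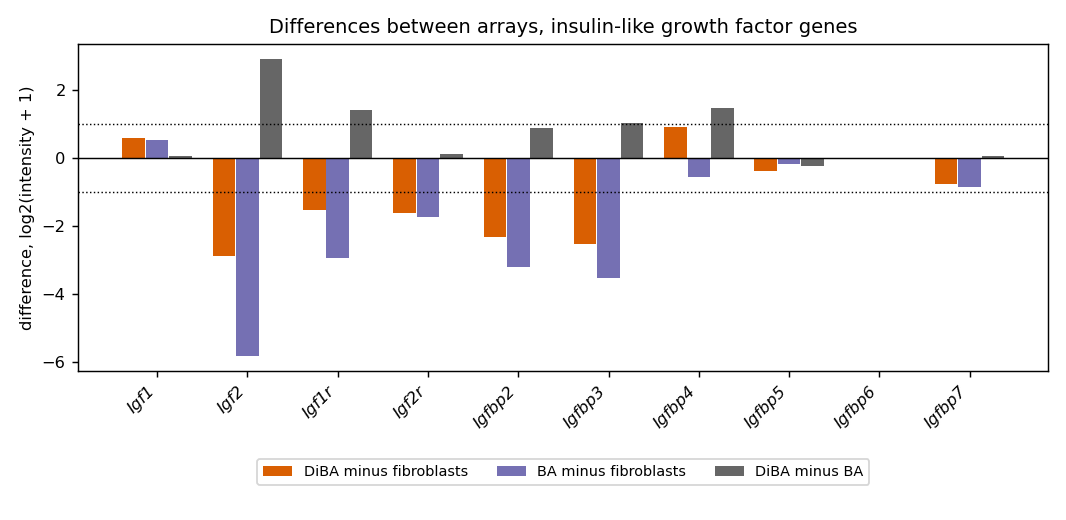
Log2(intensity + 1) differences of the 10 genes for DiBA minus fibroblasts, BA minus fibroblasts and DiBA minus BA, 1 array each, with dotted lines at 2-fold. Igf2 reaches -5.81 for BA minus fibroblasts and 2.92 for DiBA minus BA, and Igfbp4 is the gene with clearly opposite signs for DiBA and BA against fibroblasts.

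The binding proteins showed distinct patterns. Igfbp3 (probe set 10384223, chromosome 11), the main carrier of the ligands in blood, had 329 in DiBA and 161 in BA, against 1879.9 in fibroblasts. It was 5.70-fold lower in DiBA (-2.51) and 11.6-fold lower in BA (-3.54) than in fibroblasts. DiBA exceeded BA by 2.04-fold (1.03), which was under 2-fold with arrays centred on their medians (0.95) and with a pseudocount of 16 (0.96). Igfbp2 (probe set 10347277, chromosome 1), a binding protein that white preadipocytes secrete as they differentiate, had 93.4 in DiBA and 50.5 in BA, against 471 in fibroblasts. It was 5.00-fold lower in DiBA (-2.32) and 9.16-fold lower in BA (-3.20), and 1.83-fold higher in DiBA than in BA (0.87). The BA value lay under 69.2, a level at which background can make up much of an intensity. With low intensities raised to that median, BA minus fibroblasts was -2.75 and DiBA minus BA 0.43.

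Igfbp4 was the 1 binding protein with its highest value in DiBA. This protein holds ligands away from the receptor until the protease encoded by Pappa cuts it. Igfbp4 (probe set 10381096, chromosome 11) had 1401 in DiBA and 503 in BA, against 746 in fibroblasts. It was 1.88-fold higher in DiBA (0.91) and 1.48-fold lower in BA (-0.57) than in fibroblasts, both under 2-fold, and 2.78-fold higher in DiBA than in BA (1.48). Of 11699 genes past the level filter on at least 1 array, 43 (0.368%) exceeded both BA and fibroblasts by 1.5-fold or more in DiBA, Igfbp4 among them, a threshold chosen after its values were seen.

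The windows before the starts of Igfbp3 and Igfbp4 are shown because these genes, on the same chromosome, took different directions in DiBA. They lie at chr11:7213924-7214173 on the minus strand for Igfbp3 and chr11:99040994-99041243 on the plus strand for Igfbp4.
Igfbp3: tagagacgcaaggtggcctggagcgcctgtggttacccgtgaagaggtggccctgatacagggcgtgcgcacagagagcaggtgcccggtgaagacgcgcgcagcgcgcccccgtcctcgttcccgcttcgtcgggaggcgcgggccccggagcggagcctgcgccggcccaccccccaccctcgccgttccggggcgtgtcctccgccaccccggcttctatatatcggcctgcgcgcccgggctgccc
Igfbp4: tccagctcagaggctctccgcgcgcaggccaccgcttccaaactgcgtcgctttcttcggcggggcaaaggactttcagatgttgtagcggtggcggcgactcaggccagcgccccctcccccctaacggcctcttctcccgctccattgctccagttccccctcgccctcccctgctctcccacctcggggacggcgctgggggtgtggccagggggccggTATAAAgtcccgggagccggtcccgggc
The Igfbp4 window holds a TATA box that begins 28 bases before the start, and 22 CpG. The Igfbp3 window holds 32 CpG and neither motif in these letters.

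The remaining binding proteins differed by less than 2-fold in every comparison. Igfbp7 (probe set 10530841, chromosome 5), a matrix-bound protein of low affinity for the ligands that endothelial cells and fibroblasts also make, had 3975 in DiBA and 3769.7 in BA, against 6759 in fibroblasts. It was 1.70-fold lower in DiBA (-0.77) and 1.79-fold lower in BA (-0.84). Igfbp5 (probe set 10355500, chromosome 1), a binding protein of the extracellular matrix, had 668 in DiBA and 778 in BA, against 872 in fibroblasts. DiBA was the lowest of the 3 there, by 1.30-fold against fibroblasts and 1.16-fold against BA. Igfbp6 (probe set 10427125, chromosome 15), which prefers Igf2 as its ligand, had 268 in DiBA, in BA and in fibroblasts, identical to the deposited decimals. Identical intensities on all 3 arrays occurred for 9677 of 28943 probe sets (33.4%), so this tie is a property of the deposited values and does not show equal expression.

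**Figure D3:**
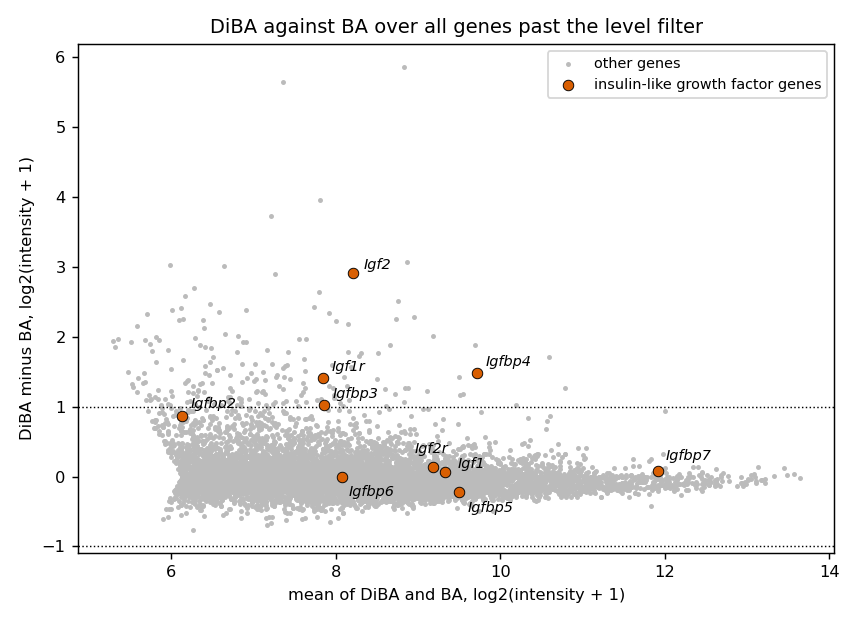
DiBA minus BA against the mean of both, in log2(intensity + 1), for the 11076 genes past the level filter (grey) with the 10 axis genes in orange and dotted lines at 2-fold. Igf2 stands at 2.92, Igfbp4 at 1.48, Igf1r at 1.41 and Igfbp3 at 1.03, and the other 6 lie between -0.22 and 0.87.

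The genes that act around the axis were taken from a list of 27, of which 24 were measured by a probe set with 1 gene symbol. Ins1, Igf2bp2 and H19 were not analysed here. In DiBA against fibroblasts 6 of 24 were at least 2-fold higher and 4 lower, in BA 7 were higher and 4 lower, and in DiBA against BA 2 were higher and 0 lower. Of the 24, 19 passed the level filter in both comparisons with fibroblasts and 17 in DiBA against BA. Over all genes past the filter, 14.7% were higher and 13.2% lower in DiBA than in fibroblasts, 16.3% and 16.4% in BA, and 1.75% and 0.0% in DiBA against BA. The counts are read as a description only. The median log2 difference of the 24 genes was 0 in all 3 comparisons, as for all genes. For the partners that 0 came from genes with identical deposited intensities, such as Irs2, and does not show a typical partner as unchanged. The RNA-binding proteins that hold Igf2 messenger RNA were among the lower genes. Igf2bp3 had 60.7 in DiBA and 37.6 in BA, against 511 in fibroblasts, and was 8.30-fold and 13.3-fold lower. Both of its lower values lay under the median of all probe sets, and with low intensities raised each difference became -2.87. Igf2bp1, averaged over 2 probe sets, differed by -2.42 in DiBA and -2.97 in BA, and by -1.36 and -1.45 with low intensities raised. Of its probe sets, 1 lay under 69.2 on all 3 arrays, and the other lay under it in BA, at 33.6.

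Grb10, an imprinted adaptor that restrains signalling by the insulin and growth factor receptors, had the most negative differences of the list. It had 324 in DiBA and 207 in BA, against 3479.7 in fibroblasts, 10.7-fold and 16.8-fold lower. Pappa, the protease that cuts Igfbp4, had 129.3 in DiBA and 58.5 in BA, against 847 in fibroblasts, 6.51-fold and 14.3-fold lower. DiBA exceeded BA by 2.19-fold for Pappa and, with low intensities raised, by 0.89 on the log2 scale, under 2-fold. Stc1, a glycoprotein hormone whose family inhibits that protease, had 166 in DiBA and 75.5 in BA, against 118 in fibroblasts, 2.18-fold higher in DiBA than in BA. Neither Pappa nor Stc1 reached 2-fold between DiBA and BA with a pseudocount of 16. In DiBA against fibroblasts Pappa and Igfbp4 took different directions, with Pappa lower and Igfbp4 1.88-fold higher, under 2-fold. In BA both were lower than in fibroblasts, Igfbp4 by less than 2-fold, and both were higher in DiBA than in BA.

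The partners higher in BA than in fibroblasts were Insr, Ghr, Stat5a, Stat5b, Akt2, Htra3 and Igfals. Other insulin signalling genes of the list were not called higher. Their log2 differences in BA were -0.41 for Irs1, 0 for Irs2, -0.85 for Akt1 and 0.94 for Foxo1. Irs1 averaged 2 probe sets, of which 1 read 27.0 on all 3 arrays and the other differed by -0.82. Irs2 had 178 on all 3 arrays, a tie in the deposited values that does not show equal expression. Insr, the insulin receptor, averaged 621 in DiBA and 662 in BA over 2 probe sets, against 263 in fibroblasts, 2.36-fold and 2.51-fold higher, whereas Igf1r was lower in both. Ghr, the growth hormone receptor, had 2923 in DiBA and 2945 in BA, against 1033 in fibroblasts, 2.83-fold and 2.85-fold higher. Stat5a, a transcription factor downstream of that receptor, was 4.07-fold and 4.04-fold higher, with 1033 in DiBA and 1024 in BA, against 253 in fibroblasts. Stat5b was 1.87-fold higher in DiBA and 2.09-fold higher in BA. Akt2, the kinase that carries the insulin signal in adipocytes, was 2.69-fold higher in DiBA and 3.08-fold higher in BA, with its 2 probe sets alike in direction. Htra3, a secreted serine protease, was 2.91-fold and 3.00-fold higher. Igfals, the subunit that stabilises ligand and binding protein in blood, had 128.5 in DiBA and 147 in BA, against 54.6 in fibroblasts, a value under the median of all probe sets. It was 2.33-fold and 2.66-fold higher, and with low intensities raised the log2 differences were 0.88 and 1.08.

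**Figure D4:**
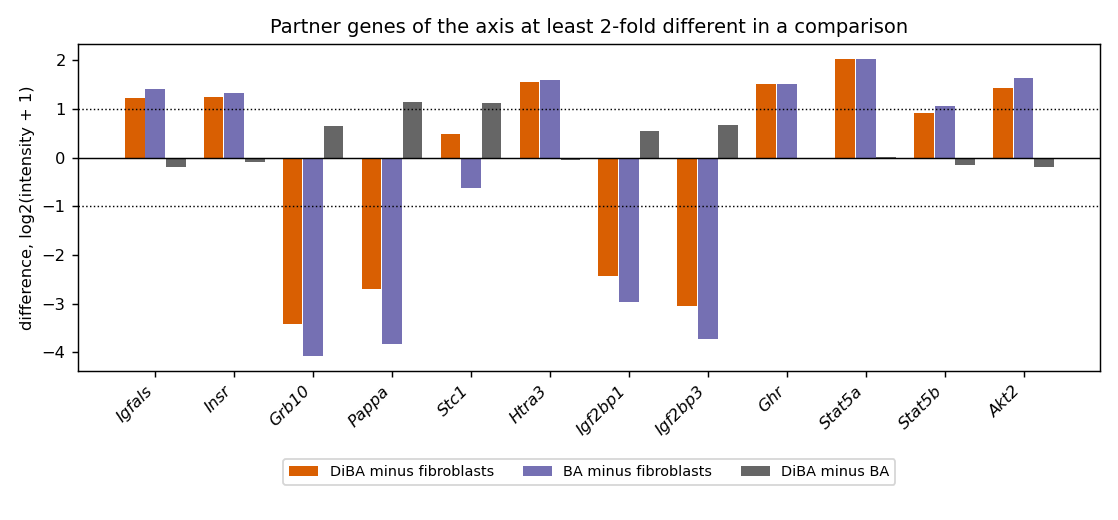
Log2(intensity + 1) differences of the 12 partner genes at least 2-fold different in a comparison, for DiBA minus fibroblasts, BA minus fibroblasts and DiBA minus BA, 1 array each, with dotted lines at 2-fold. Grb10, Pappa, Igf2bp1 and Igf2bp3 lie below -2 in DiBA and in BA, while Stat5a stands highest at 2.03 and 2.01.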

How the data were processed

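Total RNA of 3 mouse samples was labelled with biotin and measured on single-colour Affymetrix arrays, 1 per sample, per the labels' protocols. The authors deposited 1 linear intensity per probe set and array, and the submitters' processing notes name Affymetrix Expression Console. Version, background correction, summarization and normalization are not stated in the labels or notes used here. Array medians were 71.5 for DiBA, 67.7 for BA and 67.8 for fibroblasts, so the intensities were taken as normalized, and depth is limited by the number of arrays.

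Of 28943 probe sets, 21789 had 1 symbol in the platform's probe table, giving 19938 genes; 1621 with several symbols and 5533 not listed were left out. Log2(intensity + 1) was averaged over a gene's probe sets. A gene was called at 2-fold or more where the brighter array reached 69.2, the median over all arrays. Promoter windows came from RefSeq (GRCm38.p6), and checking symbols against its gene table changed 0. Groups came from the labels. No test was run with 1 array a group. The steps were tested on simulated data (Python 3.11.15, pandas 2.3.3, NumPy 2.4.6).

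The members and lists were chosen with earlier results of these data known. Named are the 10 members, partner genes at least 2-fold different in a comparison, the 3 genes nearest to each ligand, and Airn, chosen for its place beside Igf2r. Irs1, Irs2, Akt1 and Foxo1, called in no comparison, are named beside the insulin signalling genes that were higher. Pcna is named for its part in the cell cycle sum. Alternatives covered centring, quantile normalization, a pseudocount of 16, raising low intensities, other level filters, the highest probe set per gene and a 1.5-fold threshold.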

Additional observations from a re-analysis of the deposited data

Results flagged for a closer look

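Igfbp4 differed in opposite directions in the 2 samples set against the same fibroblast array. Its log2 difference was 0.91 in DiBA and -0.57 in BA, and the difference between them was not tested, since each group held 1 array.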

How the results depend on the processing

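The signs of the called differences of Igf2, Igf1r, Igf2r, Igfbp2, Igfbp3 and Igfbp4 held under centring, quantile normalization, a pseudocount of 16, raised low intensities and the highest probe set per gene. Igf2 ranged from -2.96 to -2.79 for DiBA against fibroblasts, from -5.81 to -5.62 for BA against fibroblasts and from 2.76 to 2.92 for DiBA against BA. Small differences changed sign for Igf1 (-0.01 to 0.07, DiBA against BA), Igfbp6 (-0.08 to 0.02, DiBA against fibroblasts) and Igfbp7 (-0.0009 to 0.08, DiBA against BA). At a 1.5-fold threshold 2 of the 10 genes, Igf1 and Igfbp4, were higher in DiBA than in fibroblasts, where 0 were at 2-fold. The 2 partner genes higher in DiBA than in BA became 0 with a pseudocount of 16, 1 with low intensities raised and 0 with a 75th percentile level filter. Other counts of axis and partner genes stayed within 1.5 times. Over all genes, the 194 higher in DiBA than in BA became 76 with the 75th percentile filter and 456 at 1.5-fold, and the 0 lower became 11 at 1.5-fold and 1 with no filter. At 1.5-fold the 1530 genes lower in DiBA than in fibroblasts became 2747, and the 1913 lower in BA became 3049. No paired analysis was possible because each group held 1 array.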

Other observations

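On the linear scale, the position of DiBA was taken between BA (0%) and fibroblasts (100%) for genes that differed between those 2 samples, a measure chosen after the values were seen. Igf1r lay at 24.7%, Igf2 at 11.9%, Igfbp2 at 10.2%, with its BA value under 69.2, Igfbp3 at 9.79% and Igf2r at 4.13%. Among partners, Grb10 lay at 3.59% and Pappa, whose BA value was under 69.2, at 8.98%. All 1913 genes at least 2-fold lower in BA than in fibroblasts had a median of 10.2% (quartiles 3.87% and 17.5%), so of these named genes Igf1r lay above the upper quartile and Grb10 below the lower. The 1897 genes higher in BA by 2-fold or more had a median of 16.3% (quartiles 9.88% and 23.0%), with Igfals at 20.0%, Stat5b at 19.6%, Akt2 at 18.5% and Insr at 10.3%. Htra3 at 4.43%, Ghr at 1.18% and Stat5a at -1.06% lay below its lower quartile. Choosing genes by their BA and fibroblast values shapes such percentages, and why DiBA lay near BA for most of them was not tested.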
